A study of Arabidopsis thaliana with 6 samples.

Results

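Subtilases, or subtilisin-like proteases, are serine proteases that use a catalytic triad of aspartate, histidine and serine. Most plant subtilases are made as inactive precursors, lose an inhibitory prodomain and act in the cell wall, where they shed or mature peptide hormones, trim wall-modifying enzymes or degrade proteins. In leaves they are known from stomatal patterning, from defence priming and from protein turnover. The genes described here are 54 listed subtilase loci of Arabidopsis thaliana, taken by locus. Of these, 43 had a probe set of their own among the 13286 genes analysed, and each of the 43 had 1 probe set. Another 4 loci lie on 2 probe sets that are each listed for a pair of loci, and those were kept apart. The remaining 7, SDD1, ALE1, SLP2, SLP3, XSP1, AIR3 and UNE17, were not analysed here.

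The mock group was leaf material of plants aged 3 to 4 weeks that were sprayed with the wetting agent Silwet at 0.01%. The SA group received the same Silwet solution with 1 mM salicylic acid (SA), a phenolic hormone of plant defence, and both were harvested after 2 hours. Each group holds 3 biological replicates on 1 ATH1 array each, and the comparison asks which leaf transcripts differ between SA and mock at that time. The labels give no ecotype or mutant allele and do not say how many plants went into a sample.

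Values are log2 signals made with RMA, and a change is SA minus mock in log2 units with its standard error from a limma fit over all genes. A gene passed at a Benjamini-Hochberg adjusted p under 0.05. Each probe set binds its target with its own strength, so signals of different genes are not ranked against each other. Mock and SA arrays of equal replicate number varied together, and results that change when the number enters the fit as a block are given both ways. Of the listed leaf cell markers few were analysed: the mock and SA means of PRK, a mesophyll gene, were 13.03 and 12.77, those of FMA of guard cells 7.15 and 6.93, and those of TRY of trichomes 7.03 and 6.67. The stomatal lineage genes MUTE and SPCH had changes of -0.016 and 0.0040. None of these 5 markers passed the test in either fit. In whole leaves, fewer cells of a type and less RNA per cell cannot be told apart, and the part of cell makeup in the changes below was not tested.

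AT5G45650 was the subtilase gene with the largest change downward, and it was singled out with this fall already known. Its log2 signals were 9.78, 9.94 and 9.63 in mock replicates 1, 2 and 3, and 8.58, 8.31 and 7.99 in SA replicates 1, 2 and 3. Every SA array lay below every mock array, and the lowest mock array stood clear of the highest SA array. The group means were 9.78 ± 0.15 (SD, n = 3) in mock and 8.29 ± 0.30 (SD, n = 3) in SA leaves. AT5G45650 fell 2.81-fold, a log2 change of -1.49 ± 0.17 (limma adjusted p = 0.0266). The differences within the pairs of arrays numbered 1, 2 and 3 were -1.20, -1.63 and -1.65. The fall was of like size without each single array, from -1.64 to -1.34, but the adjusted p passed the threshold only without SA replicate 1, at 0.0491, and reached 0.135 without mock replicate 2. An exact two-sided permutation test of the 6 arrays gave p = 0.1, the smallest that 3 against 3 allows.

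The neighbour of AT5G45650 on chromosome 5, AT5G45640, lies next to it with no protein-coding gene between them in the RefSeq annotation. Both belong to the SBT5 subfamily of the published subtilase numbering. The log2 signals of AT5G45640 were 5.08, 5.08 and 5.27 in mock and 5.22, 5.15 and 4.83 in SA leaves, so its groups overlapped. Its change was -0.077 ± 0.13 (adjusted p = 0.926). The within-array difference between both genes was 4.64 ± 0.25 (SD, n = 3) in mock and 3.22 ± 0.12 (SD, n = 3) in SA leaves, a shift of -1.41 (exact permutation p = 0.1, the smallest possible). This shift mostly repeats the fall for which AT5G45650 was singled out. A signal of about 5 is near the lower end of the array, where RMA compresses changes, so a fall of AT5G45640 could have gone undetected.

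The other 3 measured SBT5 genes differed in signal and in change. ATSBT5.2 (AT1G20160) is known for cleaving the stomatal peptide EPF2 and for a part in maturing the abscission peptide IDA. Its log2 signals were 8.71, 8.52 and 7.86 in mock and 8.25, 7.77 and 7.47 in SA leaves. The SA values were lower than the mock values of the same number each time, while the groups as a whole overlapped. The change of ATSBT5.2 was -0.53 ± 0.29, with an adjusted p of 0.514 in the fit without the block and 0.0372, past the threshold, with it. Its tandem neighbour AT1G20150 had a change of -0.018, and SBT5.4 (AT5G59810) one of -0.037, and neither passed in either fit. Mean log2 signals of AT1G20150 were 4.79 in mock and 4.77 in SA leaves, and those of SBT5.4 were 5.68 and 5.64. At such low signals a fall of either gene could have gone undetected, as in AT5G45640.

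The change of AT5G45650 was set against each of the 4 measured SBT5 relatives as a shift in the within-array difference. The shifts were -0.96 against ATSBT5.2, -1.41 against AT5G45640, -1.45 against SBT5.4 and -1.47 against AT1G20150. Those against AT5G45640, SBT5.4 and AT1G20150, all genes of low signal, mostly repeat the fall of AT5G45650 itself. Each of the 4 shifts had an exact permutation p of 0.1, adjusted p = 0.1 over these 4 comparisons, and the design allows no smaller value. All 3 pairs of arrays gave a shift below 0 in each comparison. Over all 42 other measured subtilases the shift was likewise below 0 in every pair, and 40 of the comparisons were at the smallest exact p. The other 2 were AT3G14240 and SBT1.3, each with an exact p of 0.2. Since AT5G45650 was singled out for its fall, these counts describe the data and do not show that it stands apart.

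**Figure D1:**
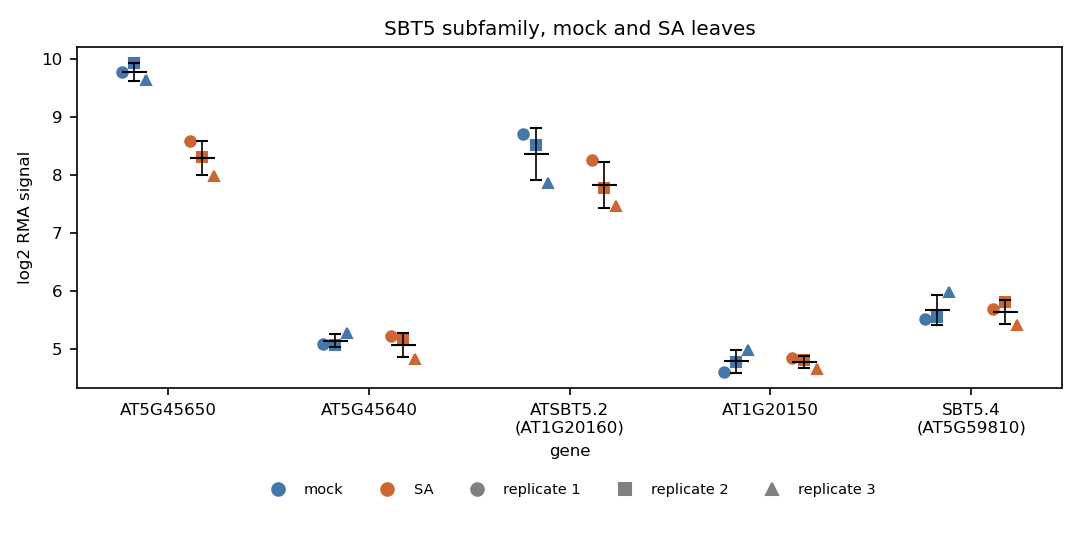
Log2 RMA signal of the 5 measured SBT5 genes in each array, with mock in blue and SA in orange, the marker shape giving the replicate number, and the black bars giving mean ± SD (n = 3). AT5G45650 lies between 9.63 and 9.94 in mock and between 7.99 and 8.58 in SA leaves. AT5G45640, ATSBT5.2, AT1G20150 and SBT5.4 overlap between the groups, and heights of different genes are not comparable.

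Across the family the changes were mostly small. limma called 1 of the 43 measured genes, AT5G45650 (2.33%, against 1.63% of all 13286 genes). Since that gene was singled out for its fall, the shares in this paragraph and the next are those of the 42 others. Without the block limma called 0 of these 42, with 5 at an unadjusted p under 0.05, or 11.9%, against 13.8% of all genes. With the replicate block it called 5 of 42, or 11.9%, against 9.91% of all genes. The 3 falls among them were those of AT5G44530, ARA12 and ATSBT5.2, or 7.14% against 4.76%, and AT5G45650 passed in this fit too (adjusted p = 0.00503). The 2 rises were those of SBT3.3 and SBT3.5, or 4.76% against 5.15%. Fitted changes of at least 2-fold numbered 2 of 42, or 4.76%, against 2.84% of all genes, and belonged to SBT3.3 and SBT3.5. At these counts of 2 to 5 genes the shares of the 42 genes lay near those of all genes.

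The mock and SA arrays were fully separated in 5 of the 42, or 11.9%, against 18.0% of all genes. Upward there were 2, or 4.76% against 8.57%, and downward 3, or 7.14% against 9.45%. All 3 pairs gave a difference above 0 in 4 genes, or 9.52% against 20.4%, and below 0 in 9 genes, or 21.4% against 24.7%. These shares depended on signal strength. Of the 42 genes, 19 had a mean log2 signal of at least 6, and of those 5 had an unadjusted p under 0.05 (26.3%, against 19.9% of all genes with such signals). The block called 5 of the 19 (26.3%, against 14.7%), and all pairs were below 0 in 7 (36.8%, against 31.9%). Other shares of the 19 lay lower than those of all such genes. Without the block limma called 0 of the 19, against 2.46%. The groups were fully separated in 4 (21.1%, against 22.7%), and all pairs were above 0 in 2 (10.5%, against 22.1%). These counts are over part of the family and are given as a description.

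The median change of the 43 genes was -0.076, against -0.0077 over all genes, and 30 of 43 lay below 0 (69.8%, against 52.0% of all genes). Without AT5G45650 the median was -0.0675, and 29 of 42 lay below 0 (69.0%). Most of these changes were within the spread between replicates. Centring each array on its median raised the medians of both alike, to -0.022 for the 43 genes and 0.0465 for all genes, and left 23 of 43 below 0. Without SA replicate 3 the median of the 43 genes was 0.0015 and that of all genes -0.015, with 21 of 43 below 0. The share of all genes below 0 was not counted with centring or without SA replicate 3. In the pairs numbered 1, 2 and 3 the median differences were -0.0087, 0.064 and -0.28, the lowest being that of the pair numbered 3.

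**Figure D2:**
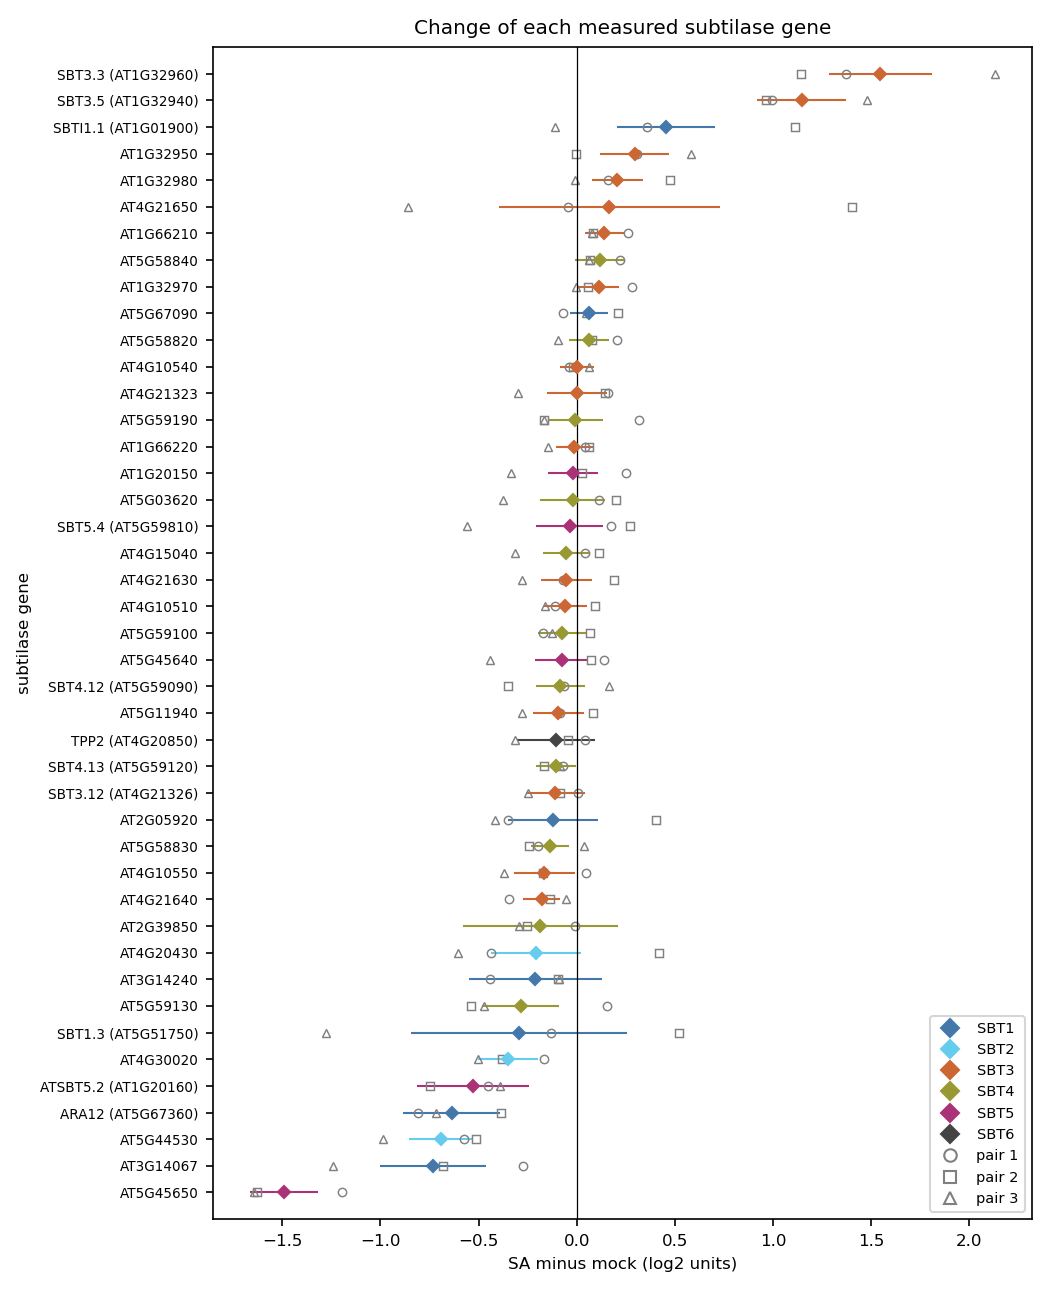
SA minus mock in log2 units for the 43 measured subtilase genes, ordered by change; diamonds with bars show the limma estimate ± standard error, coloured by subfamily, and open symbols the difference in each pair of equally numbered arrays. AT5G45650 sits at -1.49, SBT3.5 at 1.15 and SBT3.3 at 1.55, and the other 40 genes lie between -0.73 and 0.45.

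The largest changes upward were in a row of 5 listed loci on chromosome 1, AT1G32940 to AT1G32980, all of subfamily SBT3 and all measured. SBT3.3 (AT1G32960), a subtilase known for its part in priming of immune responses, had log2 signals of 6.96, 6.53 and 6.48 in mock and 8.33, 7.68 and 8.61 in SA leaves. All SA arrays of SBT3.3 lay above all mock arrays. The means were 6.66 ± 0.26 (SD, n = 3) and 8.20 ± 0.48 (SD, n = 3), a 2.92-fold difference or 1.55 ± 0.26 log2 units. Without the block SBT3.3 just missed the threshold (limma adjusted p = 0.0531), and with it SBT3.3 passed (adjusted p = 0.0126). It also passed with arrays centred on their medians, without genes of low signal, with array weights and with a robust trended variance. The limma adjusted p-values there ran from 0.0376 to 0.0494. SBT3.3 missed the threshold with quantile normalization (limma adjusted p = 0.0559) and with 32 linear units added (0.0838). It also missed with probe sets averaged per locus (0.0533), over all probe sets (0.0535) and whenever 1 array was left out (0.0718 to 0.223).

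SBT3.5 (AT1G32940), known for processing a pectin methylesterase in roots, had log2 signals of 8.42, 7.87 and 8.04 in mock and 9.41, 8.84 and 9.52 in SA leaves. The groups did not overlap, and the pair differences were 0.99, 0.97 and 1.48. Its change was 1.15 ± 0.23, a 2.21-fold difference, with an adjusted p of 0.0740 without the block and 0.00918 with it. In both SBT3.3 and SBT3.5 the pair numbered 3 gave the largest difference and the pair numbered 2 the smallest.

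The 3 other genes of this row had changes between 0.11 and 0.29, none past the test in either fit. AT1G32950, which lies between SBT3.5 and SBT3.3, had log2 signals of 5.58, 5.77 and 5.80 in mock and 5.89, 5.77 and 6.38 in SA leaves. Its groups overlapped, and its change was 0.29 ± 0.18 (adjusted p = 0.581). AT1G32980 had a change of 0.21 ± 0.13, and AT1G32970 one of 0.11 ± 0.10. Set against AT1G32950 within each array, SBT3.3 shifted by 1.25 and SBT3.5 by 0.85, both with an exact permutation p of 0.1 (adjusted p = 0.117 over 7 comparisons within the row). SBT3.3 shifted by 0.40 against SBT3.5, with the same p and with a shift above 0 in every pair. These 7 comparisons were added after the values had been seen. Probes of neighbouring copies can pick up each other's transcripts, and cross-hybridisation within this row was not tested.

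**Figure D3:**
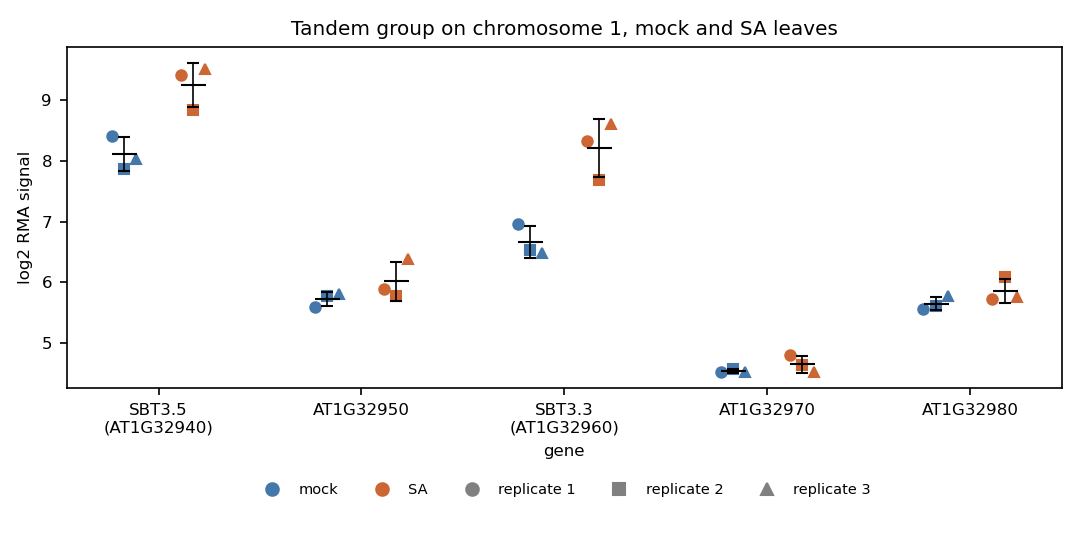
Log2 RMA signal in each array for the 5 neighbouring SBT3 genes on chromosome 1, in chromosome order, with mock in blue, SA in orange, the marker shape giving the replicate number and black bars giving mean ± SD (n = 3). SBT3.5 and SBT3.3 are higher in all SA arrays than in all mock arrays, while AT1G32950, AT1G32970 and AT1G32980 stay under 6.5 in every array with overlapping groups.

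The remaining 11 measured SBT3 genes had changes between -0.18 and 0.17, and none passed in either fit. AT4G21640 had groups that did not overlap, with mock signals of 4.39, 4.23 and 4.19 and SA signals of 4.05, 4.10 and 4.14, yet its change was only -0.18 ± 0.094 (adjusted p = 0.505). Its neighbour AT4G21650 was high in a single array. The log2 signals of AT4G21650 were 7.62, 8.15 and 8.44 in mock and 7.57, 9.55 and 7.58 in SA leaves, and its change was 0.17 ± 0.56 (adjusted p = 0.971). AT4G21630, the third gene of that row, had a change of -0.053. In the row from AT4G10510, the 3 measured genes AT4G10510, AT4G10540 and AT4G10550 had changes of -0.059, 0.0017 and -0.17. The shared probe set listed for 2 further loci of that row had a change of -0.17 ± 0.15 (adjusted p = 0.753 over all probe sets). AT1G66210 and AT1G66220 had changes of 0.14 and -0.013, AT4G21323 and SBT3.12 of 0.00061 and -0.11, and AT5G11940, which has no listed neighbour, of -0.093.

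Of the 7 measured SBT1 genes, 0 passed without the block and ARA12 alone passed with it. ARA12 (AT5G67360), known for its part in the release of seed coat mucilage, had log2 signals of 10.42, 10.89 and 10.64 in mock and 9.61, 10.50 and 9.92 in SA leaves. The SA value of replicate 2 reached into the mock range, while each SA array lay below the mock array of the same number. The change of ARA12 was -0.64 ± 0.25, with an adjusted p of 0.330 without the block and 0.0276 with it. AT3G14067 had signals of 10.65, 10.89 and 10.61 in mock and 10.37, 10.20 and 9.36 in SA leaves. Its groups did not overlap, but the differences in the pairs numbered 1, 2 and 3 were uneven, at -0.27, -0.68 and -1.24, and its change of -0.73 ± 0.27 passed in neither fit (adjusted p = 0.302, and 0.0783 with the block).

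SBTI1.1 (AT1G01900), which cleaves the precursor of the growth peptide phytosulfokine, had log2 signals of 6.82, 6.64 and 7.44 in mock and 7.18, 7.75 and 7.33 in SA leaves. Its change of 0.45 ± 0.25 was the third highest in the family and did not pass (adjusted p = 0.529), with overlapping groups. SBT1.3 (AT5G51750) varied widely among replicates, with 8.20, 8.81 and 10.15 in mock and 8.07, 9.33 and 8.87 in SA leaves. Its change was -0.29 ± 0.55 (adjusted p = 0.934). AT3G14240, AT2G05920 and AT5G67090 had changes of -0.21, -0.12 and 0.063.

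Of the 3 measured SBT2 genes, 0 passed without the block and AT5G44530 alone passed with it. AT5G44530 had log2 signals of 8.11, 8.43 and 8.43 in mock and 7.54, 7.92 and 7.45 in SA leaves, and its groups did not overlap. Its change of -0.69 ± 0.16, a 1.62-fold difference, had an adjusted p of 0.119 without the block and 0.0273 with it. AT4G30020 had a change of -0.35 ± 0.15 and was lower in SA in all 3 pairs (adjusted p = 0.398, and 0.0987 with the block). AT4G20430 had a change of -0.21 ± 0.23, with a difference above 0 in the pair numbered 2. TPP2 (AT4G20850), a large tripeptidyl peptidase of the cytosol and the SBT6 gene among the loci, had signals of 10.93, 10.71 and 10.57 in mock and 10.97, 10.66 and 10.26 in SA leaves. The change of TPP2 was -0.11 ± 0.20 (adjusted p = 0.934).

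No SBT4 gene passed in either fit, and the 11 measured ones had changes between -0.29 and 0.12. SBT4.12 (AT5G59090) and SBT4.13 (AT5G59120), which share in maturing the abscission peptide IDA, had changes of -0.083 ± 0.12 and -0.11 ± 0.10. Their log2 signals stayed under 5 in all arrays. AT5G59130 of the same row had a mean of 8.75 in mock and 8.46 in SA leaves, a change of -0.29 ± 0.19 (adjusted p = 0.650). AT5G59100 and AT5G59190 completed the row with -0.076 and -0.0063. In the row from AT5G58820, AT5G58820, AT5G58830 and AT5G58840 had changes of 0.063, -0.13 and 0.12. The genes without a listed neighbour, AT2G39850, AT4G15040 and AT5G03620, had changes of -0.19, -0.053 and -0.021. The shared probe set listed for 2 nearby loci on chromosome 3 had a change of 0.039 ± 0.10 (adjusted p = 0.955 over all probe sets).

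Of the 10 tandem rows among the loci, 9 had at least 2 measured genes. The row of AT5G45650 held a gene that passed next to one that did not, and so did the rows of SBT3.3 and ATSBT5.2 with the block. In each of these 3 rows the genes that did not pass had mean signals under 6, and those that passed had means above it. Over the family, 20 of 43 genes had a mean log2 signal of at least 6, against 64.9% of all genes. The other 23 had changes between -0.18 and 0.29, and none of them passed in either fit. Among all genes with a mean under 6, limma called 5 of 4658.

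**Figure D4:**
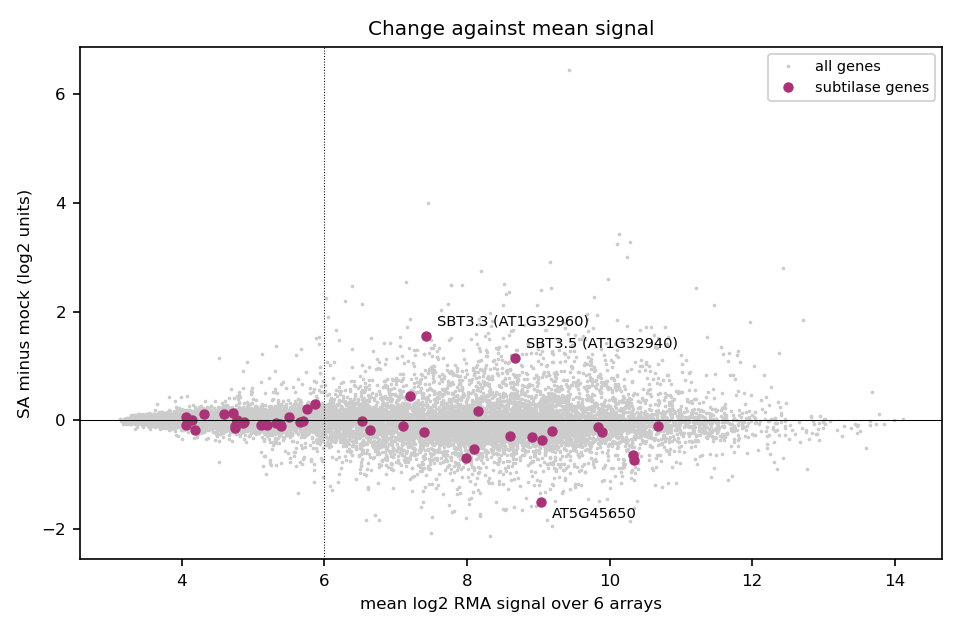
SA minus mock in log2 units against the mean log2 RMA signal over the 6 arrays, for all 13286 genes in grey and the 43 measured subtilase genes in purple, with a dotted line at 6. Changes of grey and purple points narrow to the left of the line, where 23 of the subtilase genes lie, and the named genes SBT3.3, SBT3.5 and AT5G45650 lie to its right.

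Replicate number moved several of these genes as much as treatment did. The mean of the 2 arrays numbered 1 minus that of the other 4 was -1.15 log2 units in SBT1.3 and -0.83 in both AT3G14240 and AT4G21650. It was 0.63 in AT2G39850 and 0.57 in ATSBT5.2. In these last genes the array numbered 3 was the lowest of each group, and replicate 3 was not set against the others. In all, 5 of 43 genes differed by at least 0.5 log2 units between replicate 1 and the others, or 11.6%, against 13.0% of all genes. In AT5G45650 this difference was 0.21, in SBT3.3 0.32 and in SBT3.5 0.35, each well under the change with treatment.

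Genes that act with subtilases were measured only in part, and the counts called are too small to set against the shares of all genes. Of 29 listed substrates, receptors, inhibitors and further subtilases, 11 were measured, and none passed limma without the block (against 1.63% of all genes), 0 of them at an unadjusted p below 0.05 (against 13.8%). Blocking by replicate led to 1 call, or 9.09% against 9.91% of all genes. It was that of STOMAGEN (AT4G12970), which encodes a peptide that promotes stomatal development. The log2 signals of STOMAGEN were 6.37, 6.73 and 7.72 in mock and 5.48, 6.22 and 6.46 in SA leaves, a change of -0.89 ± 0.40 (adjusted p = 0.415, and 0.0270 with the block). Its groups overlapped, and each SA array lay below the mock array of its number. BZIP17, a membrane-bound transcription factor that the subtilase S1P releases, had a change of 0.32 (adjusted p = 0.429), and S1P itself one of -0.17. AT3G50990, a peroxidase gene of seed coat mucilage, had a change of 0.14. The median of the 11 was 0.094, against -0.0077 over all genes.

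Of 19 listed proteases of other families, 5 were measured, and none passed limma without the block, where 1.63% of all genes did, and 0 had an unadjusted p below 0.05, where 13.8% of all genes did. Once blocked, BETA-VPE, a vacuolar processing enzyme of the cysteine protease type, passed with a change of -0.66 (adjusted p = 0.0154, and 0.751 without the block, where its standard error was 0.55). Its differences in the 3 pairs were -0.57, -0.82 and -0.58, while its replicates within a group spread over more than 1 log2 unit. GAMMA-VPE and SCPL49, a serine carboxypeptidase-like gene, had changes of -0.89 and -0.47 and passed in neither fit. Both were lower in SA in all 3 pairs, with limma adjusted p-values of 0.0953 and 0.0987 under the block. The groups of SCPL49 did not overlap, while those of GAMMA-VPE did. All pairs were below 0 in 4 of the 5 (80.0%, against 24.7% of all genes), a share over few genes. With the block 1 of the 5 was called, where 9.91% of all genes were, a count too small to set against that share. The median of the 5 changes was -0.47, against -0.0077 over all genes.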

How the data were processed

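Leaves of 3 mock and 3 SA samples were measured on 1 array each. The deposited values are RMA log2 signals, per the submitters' processing notes. Version and filtering are not given in the sources used. Array medians in replicates 1, 2 and 3 were 7.492, 7.497 and 7.512 in mock and 7.412, 7.463 and 7.464 in SA. Every SA median thus lay below every mock median. Correlations between arrays lay between 0.959 and 0.986, and the number of arrays limits the precision.

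After 64 control probe sets were left out, 22746 remained. Platform annotation and the RefSeq genes of TAIR10.1 matched 13436 to a locus, and 8730 were not listed. Of 144 loci with several probe sets, the one with the highest mean was kept, which gave 13286 genes. The fit used limma 3.58.1 (lmFit, eBayes) in R 4.3.3 with treatment as the only term, p-values adjusted over all genes, and was tested on simulated data. The replicates are biological per the labels.

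Deviations of equally numbered arrays correlated by 0.75, 0.46 and 0.55, above the limit of 0.1, so the numbers were taken as pairs. Those of mock replicate 3 and SA replicate 2 also exceeded the limit, at 0.137. The pairing rests on the values, as no label explains the numbers. The block fit has fewer residual degrees of freedom; the median residual SD was 0.177 without and 0.115 with it.

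Members, lists and the naming rule were chosen with earlier results of these data known. The rule named SBT5 genes, genes past either fit, the 10 largest changes, genes with known roles and tandem neighbours. Tandem rows have at most 2 other genes between listed loci, or locus numbers at most 100 apart. Subfamilies follow the published numbering. Alternatives covered scaling, 32 added linear units, a signal filter, probe set choice, variance model, array weights, the block and leaving out arrays.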

Additional observations from a re-analysis of the deposited data

How the results depend on the processing

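The change of AT5G45650 kept its direction in every alternative and its call in every one that used all 6 arrays, with adjusted p-values from 0.00503 with the replicate block to 0.0364 with 32 linear units added. Without 1 array its change ran from -1.64 to -1.34 and its adjusted p from 0.0491 to 0.135; without both arrays of replicate 1, a setting chosen after seeing the data, it was -1.64 (adjusted p = 0.0729). Its difference from AT5G45640 ran from -1.55 to -1.30 without 1 array, and the shifts against the other SBT5 genes from -1.68 to -0.78. Of the 43 subtilase genes limma called 1, and 6 with the replicate block. It called 2 of 43 with centring, the robust trended variance or array weights, and 2 of 20 with the signal filter. Without 1 array it called 0 or 1 of 43, and without replicate 1 it called 0. Each of these counts above 0 includes AT5G45650, which was singled out for its fall. Over all 13286 genes 217 were called, and 1316 under the replicate block. Centring gave 213 calls, the robust trended variance 151, array weights 479 and 32 added linear units 135. The signal filter gave 257 of 8628 genes, and the fit over all probe sets 334 probe sets. Without 1 array 5 to 57 genes were called, and 4 without replicate 1. The rises and falls over all genes were 138 and 79, and 157 and 56 with centring. The block added 1 call each to the substrates and partners and to the other proteases. Of 37 genes past the test in neither fit, 23 changed sign under at least 1 alternative. No direction is read from any single gene of the 37, and the counts of genes below 0 rest in part on them. For ATSBT5.2, ARA12, AT5G44530, SBT3.5, STOMAGEN and BETA-VPE the call rests on the pairing. Probe sets with a signal under 6 limit what could be detected.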
